A study of Homo sapiens with 2 samples.

Results

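The regions described here are the mTOR peaks that lay in the first intron of a gene and had neither a repeat nor a CpG island under their centre. They numbered 608 of the 21440 peaks called in 1 mTOR chromatin immunoprecipitation (ChIP-seq) library of MDA-MB-231 cells, and 608 of the 2877 peaks in any first intron. A peak was taken when its deposited annotation named intron 1 of a transcript and its detailed annotation gave that same intron in place of a repeat or CpG label. MDA-MB-231 is a widely used cell line from a breast cancer that lacks hormone receptors and HER2 (triple-negative), and it was kept in medium with serum. There was 1 ChIP library, made with an antibody against mTOR, and 1 input library of the same cells as the reference for peak calling, with no treatment, genetic change or replicate in the labels. Since peaks of 1 library are not replicates, no test was run, the intervals below cover counting error only, and the depth of the libraries is unknown. A peak list holds no expression values, so the identity of the cells could not be checked from it.

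mTOR is a kinase that sets protein synthesis and autophagy by the amino acids and growth factors at hand, mostly at the lysosome, and a nuclear pool of it has been found at promoters. The first intron is the stretch of a gene between its leading exon and the next one. It is often the longest intron, it begins close to the start site, and it can hold enhancers and the start sites of shorter transcripts. CpG islands are stretches rich in CG pairs that cover many promoters, and repeats are copies of mobile elements and simple sequences.

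Where such a peak reached back over the start of its own gene, the bases it covered can be shown. Of the 608 peaks, 21 overlapped the 250 bases upstream of a listed RefSeq start of the same gene, and 9 such stretches were covered over at least 200 bases. Starts of the gene of the intron were listed for 446 of the 608 peaks, so both counts are lower bounds. The 6 stretches below are those of the 9 with no other listed start inside them or in the 500 bases before them, in order of score. They are shown because each is the upstream stretch of 1 listed start alone, covered nearly whole by a peak. They run 5′ to 3′ on the strand of the gene and come from RefSeq on GRCh38.p14, the assembly of hg38. Capitals mark matches, on either strand, to any of 7 motifs searched: TGANTCA (AP-1), GGAATG (TEAD), CACGTG (the E-box of MYC and TFEB), CCGGAA (ETS), CCAAT (NF-Y), GGGCGG (SP and KLF factors) and the element shared by ZNF143 and RONIN, the factor in the title of the series.
GHDC: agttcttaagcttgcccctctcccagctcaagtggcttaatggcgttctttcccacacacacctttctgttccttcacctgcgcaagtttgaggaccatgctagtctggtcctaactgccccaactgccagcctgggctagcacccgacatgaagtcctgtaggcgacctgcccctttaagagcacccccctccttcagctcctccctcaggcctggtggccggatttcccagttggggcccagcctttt
C14orf93: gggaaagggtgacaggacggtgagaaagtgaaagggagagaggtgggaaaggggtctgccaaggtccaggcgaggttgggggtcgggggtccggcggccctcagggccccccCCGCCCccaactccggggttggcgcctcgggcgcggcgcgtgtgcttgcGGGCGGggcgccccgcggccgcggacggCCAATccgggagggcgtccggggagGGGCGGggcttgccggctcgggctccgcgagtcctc
ATF7IP: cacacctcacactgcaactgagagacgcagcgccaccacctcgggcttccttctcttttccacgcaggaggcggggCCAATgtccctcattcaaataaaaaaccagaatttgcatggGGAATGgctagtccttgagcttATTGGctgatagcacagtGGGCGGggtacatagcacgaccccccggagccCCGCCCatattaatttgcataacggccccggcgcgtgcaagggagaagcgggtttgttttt
ZNF551: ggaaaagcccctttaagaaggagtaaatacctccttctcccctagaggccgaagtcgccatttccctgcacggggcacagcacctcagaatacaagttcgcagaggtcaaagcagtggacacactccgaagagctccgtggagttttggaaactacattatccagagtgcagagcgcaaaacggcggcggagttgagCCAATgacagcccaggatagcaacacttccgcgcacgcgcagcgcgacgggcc
SLC25A22: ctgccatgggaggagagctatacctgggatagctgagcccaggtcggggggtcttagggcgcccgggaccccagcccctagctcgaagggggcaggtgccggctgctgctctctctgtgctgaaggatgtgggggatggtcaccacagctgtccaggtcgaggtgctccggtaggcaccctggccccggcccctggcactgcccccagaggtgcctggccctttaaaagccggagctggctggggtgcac
BEGAIN: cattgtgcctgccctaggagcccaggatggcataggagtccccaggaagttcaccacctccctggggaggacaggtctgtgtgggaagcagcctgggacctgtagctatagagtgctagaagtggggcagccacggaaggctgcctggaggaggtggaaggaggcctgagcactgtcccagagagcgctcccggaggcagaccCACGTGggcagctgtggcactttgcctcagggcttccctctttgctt
The GHDC stretch lay at chr17:42194495-42194744 on the minus strand, and the peak over it had a score of 818, a value of the authors whose scale is not given in the sources used here. The C14orf93 stretch (chr14:23010144-23010393, minus) and the ATF7IP stretch (chr12:14365432-14365681, plus) lay under peaks of score 179 and 147. The ZNF551 stretch (chr19:57681727-57681976, plus) lay under a peak of score 66. Those of SLC25A22 (chr11:795433-795682, minus) and BEGAIN (chr14:100548128-100548377, minus) lay under peaks of score 53 and 51. C14orf93 was the richest in G and C, with 76% and 29 CG pairs, and had GGGCGG at 3 places and CCAAT at 1. ATF7IP, which encodes a partner of the histone methyltransferase SETDB1, had CCAAT at 2 places, GGGCGG at 2 and GGAATG at 1. BEGAIN had CACGTG at 1 place and ZNF551 had CCAAT at 1, while GHDC and SLC25A22 matched none of the 7. Among all 35116 upstream stretches in the table, 42.6% held GGGCGG, 32% CCAAT, 11.9% GGAATG, 6.34% CACGTG and 0.225% the ZNF143 and RONIN element. TGANTCA and CCGGAA were in 6.57% and 14.5%. Of the 9 covered stretches, 5 held GGGCGG, 3 CCAAT, 3 GGAATG, 2 CCGGAA, 1 CACGTG, 1 TGANTCA and 0 the ZNF143 and RONIN element. Some motifs can overlap one another, and a match is only a match of letters. With 9 stretches no share was set against those of the whole table.

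BEGAIN and SLC25A22 differ from the other 4 in how the authors' annotation placed them. The BEGAIN peak was deposited as 19831 bp downstream of a start, yet its centre lay 112 bp from a RefSeq start of the same gene. The SLC25A22 peak, at the gene of a mitochondrial glutamate carrier, was deposited at 807 bp, and its centre lay 1 bp from a RefSeq start. Distances to RefSeq starts were read for 589 of the 608 peaks, and 100 of them lay within 1 kb. Of the 589, 10 were deposited more than 1 kb from a start and lay within 1 kb of a listed RefSeq start. Another 16 were deposited within 1 kb and lay beyond 1 kb of any listed start. The listed starts included the gene of the intron for only 446 of the 608 peaks. The 16 are therefore not a count of disagreements between annotations. At CSF1, whose own starts were not listed, the deposited distance was 460 bp, and the nearest listed start, of AHCYL1, lay 73456 bp away. The highest score among the 10 was 319, at ZBTB38, a zinc finger gene whose product binds methylated DNA, where the deposited distance was -17877 bp and the RefSeq distance 44 bp. A second ZBTB38 peak of score 137 lay 670 bp from a listed start. At SMAD3 there were 2 of the 10, 1 of them 582 bp from the start of the antisense gene SMAD3-AS1 and the other 856 bp from a start of SMAD3 itself.

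About as many of these peaks lay within 5 kb of a start site as beyond it. The distance to the nearest start had a median of 4656 bp, with quartiles of 1484 and 20802 bp and a range from 120 to 202634 bp. Within 1 kb lay 109 peaks or 17.9% (exact Clopper-Pearson 95% interval 15 to 21.2%), within 5 kb 311 or 51.2% (47.1 to 55.2%), and within 10 kb 382 or 62.8% (58.9 to 66.7%). At the other end, 51 peaks lay beyond 50 kb and 22 beyond 100 kb. The peaks thus ran from the edge of the promoter to sites deep inside long introns.

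**Figure D1:**
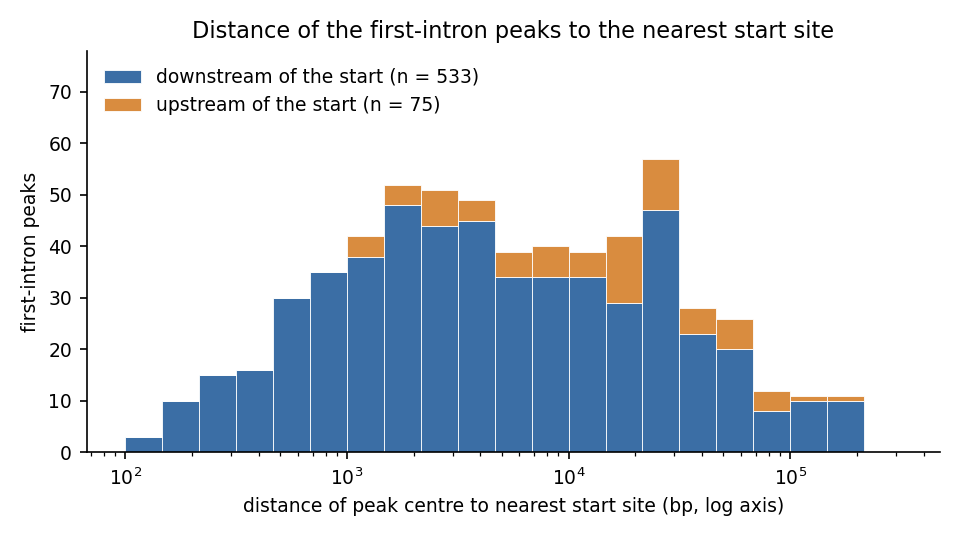
Number of first-intron peaks (vertical axis) by distance of the peak centre to the nearest start site in bp (horizontal log axis), split into the 533 peaks downstream and the 75 upstream of that start. Upstream peaks appear only beyond 1 kb because the annotation gives nearer ones to the promoter class.

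Most peaks lay downstream of the nearest start, as a place inside an intron implies, with 533 of 608 (87.7%, 84.8 to 90.2%) on that side. None of the 109 peaks within 1 kb lay upstream, which the annotation fixes, since it gives the stretch just before a start to the promoter class. The 75 upstream peaks (12.3%) were farther away, with a median of -15627 bp against 4097 bp for the downstream ones. In 34 of these 75 the nearest start belonged to the same gene, so the peak lay in the first intron of a longer transcript and upstream of a start inside the gene. SH3BP2, an adaptor gene, had such a peak of score 426 at -8587 bp, and PIK3R5, a regulatory subunit of the class I PI3-kinase gamma, had one of score 321 and 2309 bp in width at -15627 bp. ZBTB38, named above, was the next by score. In the other 41 the nearest start was not one of the gene that held the intron, as at MICAL3, where the nearest start was MIR648.

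Closeness to a start is partly built into the rule, because intron 1 adjoins the leading exon, so the fair comparison is with other first-intron peaks. First-intron peaks with a repeat label had a median distance of 14988 bp (95% interval of the median 13872 to 16206), against 4656 bp (3879 to 5989) for those without a label. Those with a CpG label lay closest, at a median of 491 bp (434 to 550), and 75% of them were within 1 kb. Later-intron peaks without a label had a median of 21818 bp and intergenic ones 28099.5 bp. Within 10 kb were 62.8% of the unlabelled first-intron peaks and 39.9% (37.7 to 42.1%) of the repeat-labelled ones, and these intervals do not overlap. The label at the centre thus went with distance inside the same kind of intron, and unlabelled peaks fell between the other groups.

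**Figure D2:**
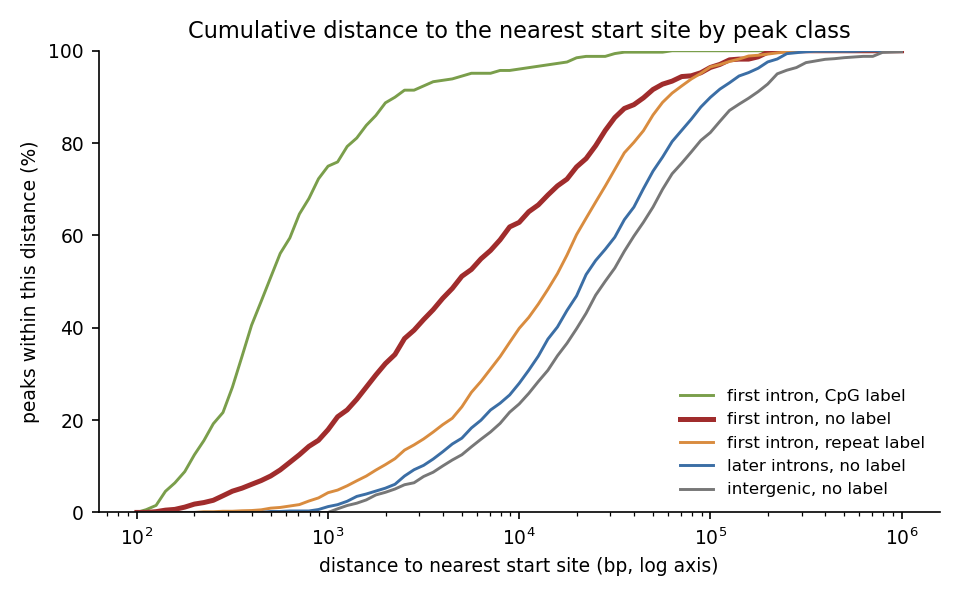
Share of peaks (vertical axis, percent) within a given distance of the nearest start site (horizontal log axis, bp) for 5 classes of peaks. The curve of unlabelled first-intron peaks lies between CpG-labelled and repeat-labelled first-intron peaks over most of its range, with medians of 4656, 491 and 14988 bp in that order.

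Intron 1 held 608 of the 1559 unlabelled intron peaks, 39.0% (36.6 to 41.5%), against 31.6% (30.5 to 32.8%) of the 6137 intron peaks with a repeat label and 78.7% (74.4 to 82.5%) of the 417 with a CpG label. Intron 2 held 245 unlabelled peaks, intron 3 held 154, intron 4 held 100 and intron 5 held 67. In transcripts of at least 10 introns the unlabelled share in intron 1 was 31.3% (28.2 to 34.4%) and the repeat-labelled share 25.6% (24.2 to 27.1%). Read the other way, 21.1% (19.7 to 22.7%) of all first-intron peaks had no label, against 18.2% (17.1 to 19.2%) in later introns. CpG labels made up 11.4% (10.3 to 12.6%) of first-intron peaks and 1.70% (1.37 to 2.09%) of later-intron ones. Intron lengths were not used here, so how much of this follows from the length of introns was not tested.

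Scores of these peaks were on the low side of the list. They ran from 13 to 1652 with a median of 48.5 (45 to 53) and quartiles of 30 and 85.25, whereas all 21440 peaks had a median of 61. At or above 61 were 39.0% of the unlabelled first-intron peaks (35.1 to 43.0%), 51.6% (49.3 to 53.8%) of the repeat-labelled ones and 31.1% (26.1 to 36.4%) of the CpG-labelled ones. Later-intron peaks without a label had 42.4% (39.2 to 45.6%), an interval that overlaps that of intron 1. Scores of 200 or more, the level of the 2147 top peaks, were reached by 46 of the 608 (7.57%, 5.59 to 9.96%).

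Width was close to that of the other peaks. The narrowest had 248 bp and the broadest 2370 bp, and the median width was 399 bp (376 to 425), against 400 bp over all peaks and 405 bp in later introns, and 43 of the 608 (7.07%) were at least 1 kb wide. Together they covered 305.5 kb. Wider peaks tended to have higher scores, with a Spearman rank correlation of 0.51 over the 608 peaks, which share a library. The widest after BRSK2 and PIK3R5 were those of the long non-coding genes LOC105376917 (2191 bp, score 423) and LINC02453 (1893 bp, score 292) and, between them, a PTPRN2 peak of 1927 bp.

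Distance and score were nearly unrelated, with a Spearman rank correlation of 0.12. The 47 peaks within 500 bp had a median score of 45 (32 to 64), the 115 from 2 to 5 kb had 48 (44 to 60), and the 175 from 10 to 50 kb had 48 (42 to 53). The highest median was that of the 51 peaks beyond 50 kb, at 74 (54 to 101). This interval overlaps those within 500 bp, from 2 to 5 kb and from 5 to 10 kb (44 to 69), but not those of the remaining distances. Of the 51 peaks, 7 were a cluster in PTPRN2. Without them the median was 61.5 (47 to 86), an interval that overlaps those of all other distances. Peaks within 500 bp were the widest by median, at 477 bp (396 to 601), but this interval overlaps those of all other distances. Width and distance had a Spearman rank correlation of -0.04.

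**Figure D3:**
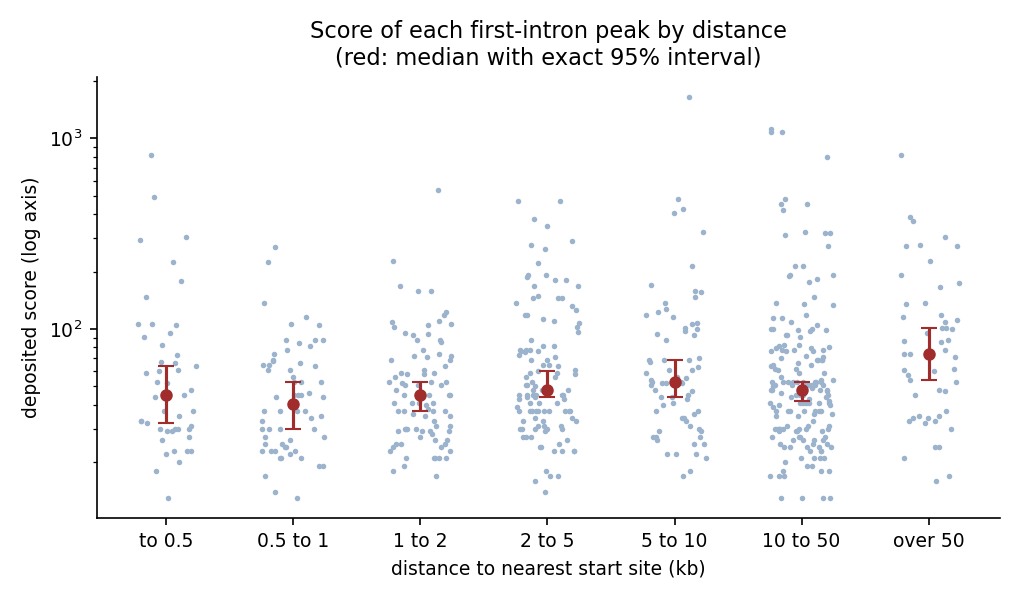
Deposited score (vertical log axis) of each of the 608 first-intron peaks in 7 classes of distance to the nearest start site (horizontal axis, kb), with the median and its exact 95% interval in red. Medians ran from 40.5 to 53 up to 50 kb and reached 74 beyond it, while single peaks above 400 occurred at most distances.

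The transcript named in the annotation could be matched to a RefSeq gene for 604 of the 608 peaks, which lay in 509 genes. Of these genes 439 were protein-coding, 64 long non-coding and 6 transcribed pseudogenes. The gene of the intron was also the deposited nearest gene in 523 of the 604 (86.6%, 83.6 to 89.2%). In 37 of the 608 peaks (6.09%, 4.32 to 8.29%) the nearest gene was a microRNA gene. These peaks named 25 different microRNA genes, and the 7 clustered PTPRN2 peaks all had MIR595. Their share was not set against that of other peak classes.

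The highest score, 1652, belonged to BRSK2, a kinase gene of neuronal polarity, whose peak was also the widest (chromosome 11, 1417110 to 1419479) and lay 7142 bp from the start. UNC5A, a netrin receptor gene, followed with 1123 at 27305 bp (chromosome 5, 176837268 to 176838460). MICAL3, which encodes an actin-oxidising enzyme, had 1083, and its peak lay in intron 1 of 31 (chromosome 22, 18001288 to 18002227). The long non-coding gene LOC339166 had 1078 at 37656 bp (chromosome 17, 5809215 to 5810565). Within the next group GHDC, shown above, had 818 at 180 bp and CHST11, a chondroitin sulfotransferase gene, had 796 at 24014 bp.

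Below these, the top 15 went on with NIBAN3 at 538 and IZUMO1, the sperm protein that binds the egg receptor JUNO, at 494. GALNT2, which starts mucin-type O-glycans, and HCN2, a pacemaker channel, had 482 each. SSH1, the phosphatase that activates cofilin, had 469, and GPRC5C, an orphan receptor gene, had 468. DNAJC1, a chaperone of the endoplasmic reticulum, and MARCHF1, a ubiquitin ligase, had 454 each. Distances of these 8 ran from 473 bp at IZUMO1 to 23896 bp upstream of ANP32C at MARCHF1, so high scores were not held to the vicinity of the start.

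Several peaks in one gene were found in 65 genes, which held 160 of the 608 peaks (26.3%, 22.9 to 30%). Of these 65, 49 had 2 peaks, 11 had 3 and 5 had 4 or more. Of the 65 genes 55 were protein-coding, which is 0.275% of all 19974 protein-coding genes. The median length of these 55 was 118.4 kb, against 66.2 kb for all protein-coding host genes and 24.2 kb for all protein-coding genes. The distance between the outermost centres in a gene ranged from 601 bp to 301033 bp with a median of 9666 bp, and in 27 genes all centres fell within 5 kb. In 14 of the 65 genes the peaks lay in first introns of different transcripts.

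PTPRN2, a receptor-type phosphatase of secretory vesicles, had 9, the highest number. Of these, 7 stood in a row of 12428 bp (chromosome 7, 158330033 to 158342460), with scores of 273, 228, 389, 818, 137, 275 and 136 in order of position, and covered 7826 bp of it. The nearest deposited start, MIR595, lay 190631 to 202634 bp away. An eighth of score 30 and a ninth of score 106 lay apart from the row, the ninth 7928 bp from a PTPRN2 start. Among the unlabelled first-intron peaks no other gene had a comparable row, since the next clusters held 3 peaks. Repeat content and copy number at this place were not tested.

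KCNMA1, the gene of the large-conductance calcium-activated potassium channel, had 6 peaks over 301033 bp, with scores of 30, 51, 41, 16, 101 and 128 in order of position. They lay in first introns of 3 transcripts. SMAD3, the transcription factor that carries TGF-beta signals, had 5 over 73941 bp with scores of 99, 26, 41, 55 and 44, also in 3 transcripts. PDGFC, a growth factor gene, had 5 over 102510 bp in 1 transcript, with scores of 87, 47, 27, 43 and 34. The median scores in these 3 genes were 46, 44 and 43, near the 48.5 of all 608 peaks, against 273 in the PTPRN2 row. Their peaks spread over longer stretches than that row, though SMAD3 and PDGFC each had 2 peaks within 5 kb of one another.

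CMIP had 4 peaks with scores of 69, 51, 53 and 213, the last pair within 2666 bp. HCN2 had 3 with scores of 110, 482 and 13, and MYOF, a membrane repair gene, had 3 within 5655 bp with scores of 30, 183 and 93. SCAND3 had 191, 56 and 51, the non-coding gene SLC44A3-AS1 had 80, 53 and 66, and the receptor phosphatase gene PTPRJ had 103, 65 and 29. Since 11 genes had 3 peaks each, the last 5 of these genes were taken from them by summed score.

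Over the whole set, 75 of the 608 peaks (12.3%, 9.83 to 15.2%) had another such peak within 5 kb, in 34 clusters, and 208 (34.2%, 30.4 to 38.1%) had a peak of any kind within 5 kb. A promoter peak, by the deposited class, lay within 5 kb of 67 (11%, 8.64 to 13.8%). With all 2877 first-intron peaks admitted, the share with another such peak within 5 kb was 16.5% (15.2 to 17.9%). Each share counts neighbours of its own set only, and the larger set offers more of them, so these shares do not compare clustering. The shares with a peak of any kind or a promoter peak nearby were not set against those of other peak classes. Counted by gene, 91 of the 439 protein-coding host genes (20.7%, 17.0 to 24.8%) had a promoter peak, as had 13.4% of all protein-coding genes and 20.4% (17.4 to 23.6%) of the 677 that held an unlabelled later-intron peak. A later-intron peak without a label was also present in 75 of the 439 (17.1%). Host genes of first-intron and later-intron peaks were thus alike in promoter peaks within counting error.

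Chromosome 19 held 94 of the 608 peaks, 15.5% (12.7 to 18.6%), against 8.59% of all peaks, and 6.48 per 100 protein-coding genes, where the median autosome had 2.55. Unlabelled later-intron peaks had 18.0% (15.6 to 20.6%) there and repeat-labelled first-intron peaks 6.90% (5.82 to 8.12%). Chromosome 20 followed with 5.77 per 100 genes and chromosome 10 with 5.45, while chromosome 13 had 0.592 and X 0.236. Of the 509 protein-coding zinc finger genes with a ZNF symbol, 6 had such a peak (1.18%, 0.434 to 2.55%). This interval includes the 2.2% of all protein-coding genes with such a peak. Of the 6 peaks, 2 lay on chromosome 19. The 6 included ZNF311 at 106, ZNF350 at 91 and ZNF551 at 66. This name pattern was counted after values had been seen.

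Which groups of genes held these peaks was described with 11 lists of symbols, each read against the share of all protein-coding genes with such a peak, 2.2% (439 of 19974). Longer genes had one more often, from 0.621% in the shortest of 4 equal length groups (0.422 to 0.880%) to 4.43% in the longest (3.87 to 5.03%), which begins at 65.2 kb. The second group had 1.48% (1.17 to 1.86%). The third, from 24.2 to 65.2 kb, had 2.26% (1.87 to 2.71%). A list of long genes therefore has a higher share to begin with, and no list was tested.

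Genes of the actin cytoskeleton and focal adhesions had the highest share, 10 of 59 (16.9%, 8.44 to 29.0%), with a median gene length of 57.9 kb. ITGB5, an integrin subunit that binds vitronectin, had 93 at 8354 bp, and PARVA, which links integrin-linked kinase to actin, had 69 and 39. BCAR1, the scaffold p130Cas, had 51, MYH9, the non-muscle myosin heavy chain, had 48 at 22970 bp, and TPM4, a tropomyosin, had 31. ITGA2 and PXN, the genes of an integrin subunit and of paxillin, had 30 each, and VASP, PALLD and CNN2 had 27, 24 and 21. The scores of these 11 peaks were low, with a median of 31 against 48.5 over all 608 peaks. A score of 61 or more was reached in 2 of the 59 genes listed, beside 0.906% of all protein-coding genes, and in 2 of the 10 genes with a peak, beside 181 of the 439 protein-coding host genes.

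Receptor tyrosine kinase and MAPK genes had 5 of 59 (8.47%, 2.81 to 18.7%; median length 80.6 kb), ROR1 at 93, RRAS2 at 82, EPHB2 at 53, HRAS at 41 and EGFR. EGFR, the epidermal growth factor receptor, had 3 peaks of score 25, 46 and 37 in first introns of 2 transcripts, of which 2 lay upstream of an internal start at -44526 and -30695 bp. The Hippo pathway and YAP target list had 3 of 43 (6.98%, 1.46 to 19.1%), MYOF, FRMD6 at 38 and ARHGEF17 at 25. TGF-beta genes had 2 of 37, SMAD3 and SKI, a SMAD repressor, at 98 with a width of 946 bp. AP-1 and immediate early genes had 1 of 30, MAFK at 30.

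mTOR pathway genes had 4 of 62 (6.45%, 1.79 to 15.7%). SEH1L, part of the GATOR2 complex that relieves inhibition of mTORC1, had 225 at 794 bp, with a width of 1512 bp (chromosome 18, 12948050 to 12949561). LAMTOR1, which anchors the Ragulator complex to the lysosome, had 29 at 177 bp, and GRB10, an adaptor phosphorylated by mTORC1, had 27 at 4145 bp. TFEB, the transcription factor of lysosome genes that mTORC1 holds in the cytoplasm, had 25 at 1793 bp. Apart from SEH1L these scores were below the lower quartile of 30.

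Cytosolic ribosomal protein genes, the group in the title of the series, had 0 of 79, which allows a share of up to 4.56% by the exact interval (3.80% by a limit of 3 counts), and their median length was 5.01 kb. Promoter peaks were present at 29 of the same 79. Senescence arrest genes also had 0 of 34, which allows up to 10.3% (8.82% by 3 counts). Promoter peaks were present at 8 of these 34, and at 13.4% of all protein-coding genes.

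Markers of the breast cell classes were few. Of 30 basal and mesenchymal markers 1 had such a peak, EGFR, and of 25 luminal markers 2, MLPH, a melanosome transport gene, at 191 and KRT8, a simple epithelial keratin, at 109. Neuron markers had 3 of 30 (10.0%, 2.11 to 26.5%; median length 108.2 kb), the channel genes KCNQ3 at 95 and 33 and CACNA1A at 27, and RBFOX3 at 37. The intervals of all 3 shares included 2.2%, so these counts give no order between the lists.

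**Figure D4:**
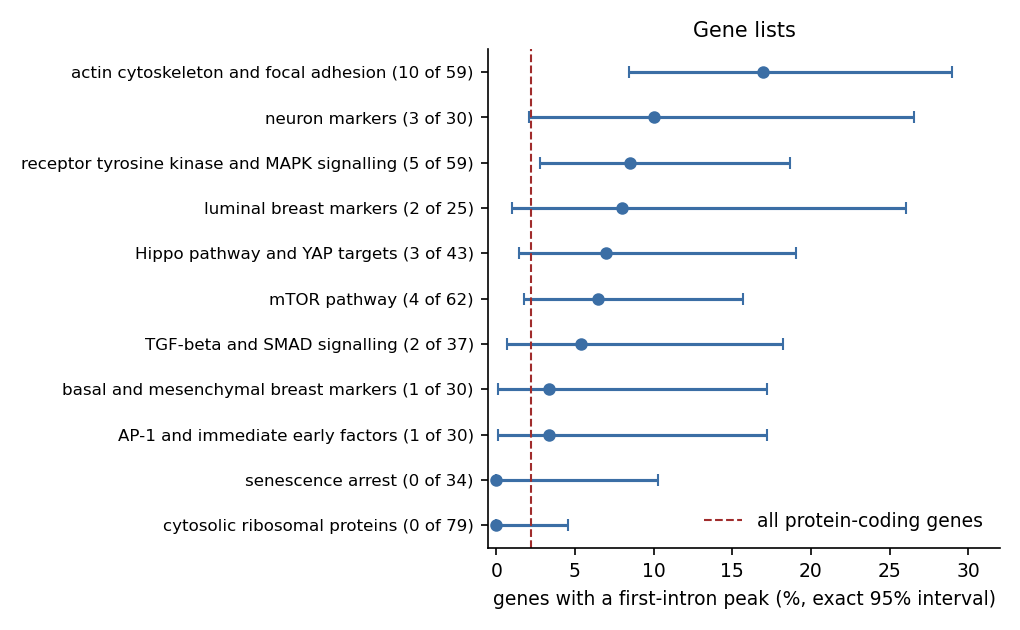
Share of genes with an unlabelled first-intron peak (horizontal axis, percent, with exact 95% intervals) in 11 gene lists (rows, with counts), and the share of all protein-coding genes, 2.2%, as a dashed line. The actin and focal adhesion list has the highest share, 16.9%, and the intervals of 9 lists include the dashed line.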

How the data were processed

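Chromatin of MDA-MB-231 cells enriched with an mTOR antibody was sequenced beside an input library, per the labels' protocols. Per the submitters' processing notes, which state no settings, the authors used hg38, HOMER 4.11.1, MACS2 2.1.1.20160309, Picard 2.0.1, BWA 0.7.12 and Trimmomatic 0.36. The peak threshold and the treatment of duplicate and multiply aligned reads were not given in the sources used here. The authors deposited 1 table of 21440 annotated peaks, with a score of unstated scale, positions and the distance to the nearest start site. No file of the input was analysed here.

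Peaks were chosen by the annotation text alone. The members, lists and settings were chosen with earlier results of these data known. Width is end minus start plus 1. The gene of an intron came from a RefSeq gene table on GRCh38.p14 by transcript. Shares have exact Clopper-Pearson 95% intervals and medians exact binomial intervals of ranks, and both were tested on simulated data. Genes named are those of the 15 top scores, the 10 genes with most peaks (ties by summed score), the 5 widest peaks, the 5 farthest, which all lie in the PTPRN2 row, and up to 3 top peaks of each list. Other members of a list and the SMAD3-AS1, SLC25A22, BEGAIN, SH3BP2, ZBTB38 and ZNF examples were chosen after their values were seen. Some further lists are not reported here. Motifs in whole peaks need a genome, which was not used here. The work used matplotlib 3.10.9, scipy 1.17.1, numpy 2.4.6, pandas 2.3.3 and Python 3.11.15.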

Additional observations from a re-analysis of the deposited data

How the results depend on the processing

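Alternatives changed the score limit, the labels admitted, the transcripts, chromosome 19, the gene assignment and the cluster distance. A value counted as moved outside its 95% interval, or by over 1.5 times for a count. With the 237 peaks of score 61 or more, the median distance was 6023 bp, the median width 559 bp and the clustered share 7.17%. Genes with several fell to 16, and the median score was 103 by construction. With scores of 200 or more, intron 1 held 34.3% of unlabelled intron peaks, 50% lay within 10 kb and 76.1% downstream, the median distance was 9415 bp, the median width 920.5 bp and the median score 321.5, and 1 gene had several. With CpG labels added, these shares were 47.4% in intron 1, 37.9% within 1 kb and 74.5% within 10 kb, and the median distance was 1811 bp. With repeats added as well, they were 35.5% in intron 1, 51.1% within 10 kb and 9531 bp, with a median score of 56, 477 genes with several and 16.5% clustered. Joining centres within 2 kb gave 7.57% and within 10 kb 16.0%. With scores of 61 or more, the list counts were 1 for the mTOR pathway, 2 for actin, 1 for Hippo, 0 for AP-1, 2 for receptor kinases, 0 for basal markers and 1 for neuron markers, where the background was 0.906%. By deposited nearest gene AP-1 had 0 and senescence 1, HMGA2, with a background of 2.09%. Coding transcripts only, chromosome 19 left out and, added after the data were seen, PTPRN2 left out moved none of the 9 values each. The share of motifs in whole peaks was not run. No paired analysis was possible because each group has 1 library. The unknown depth limits how many peaks were called, and 1 library gives no replicate spread.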
